A study of Mus musculus with 6 samples.

Results

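The cells described here are intermediate urothelial cells of the mouse bladder with high uroplakin, 7150 of the 55399 cells with over 500 detected genes. Their members were chosen by a rule on their own counts of unique molecular identifiers (UMIs, tags that mark single captured mRNA molecules), library by library. A cell had to hold at least 20 UMIs of Krt5, Krt7, Krt8, Krt15, Krt18 and Krt19 together and over 2 times its UMIs of Col1a1, Col1a2, Col3a1 and Dcn. It held no UMI of Ptprc or Pecam1, at most 2 of Top2a, Mki67, Birc5 and Ube2c, fewer than 5 of Acer2 and Krt20, at most 1 of Krt14, Col17a1 and Dlk2, and at least 1 of Ugt2b34. The cells that passed, called gated intermediate cells here, were ranked by the log ratio of Krt5 and Krt15 to Upk2 and Upk3a, and the part lowest in rank of 3 equal parts was kept. The other parts are called middle and basal-near cells. Superficial cells passed the same gate on keratin, collagen, leukocyte, endothelial and cell cycle genes and on Krt14, Col17a1 and Dlk2. They held 5 or more UMIs of Acer2 and Krt20, and no UMI of Ugt2b34 was required of them.

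Bladder mucosa was taken from wild-type C57BL/6 mice of 8 weeks and profiled by droplet-based 3' single-cell RNA sequencing, with 2 libraries for each of 3 conditions, described by the study as biological replicates, and 4 to 6 mice per condition. For healthy mice the labels name no treatment. For acute injury a single dose of 150 mg/kg CPP (cyclophosphamide, whose breakdown products in urine damage the bladder lining) was injected and tissue was taken on day 2. For chronic injury 4 doses of 75 mg/kg were injected and tissue was taken on day 11, in both cases 48 h after the last injection.

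The urothelium is layered, with basal cells at the bottom, intermediate cells above them and large superficial (umbrella) cells facing the urine. Uroplakins are membrane proteins that assemble into rigid plaques on the apical surface of superficial cells, where Upk1a pairs with Upk2 and Upk1b with Upk3a. Intermediate cells make uroplakins before they reach the surface and can replace superficial cells that are lost.

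The libraries held between 54604109 and 111985678 UMIs, and they shared between 36 and 229 cell barcodes by pair, of which at most 4 belonged to the chosen cells of both. High-uroplakin cells numbered 1275 and 1301 in the healthy libraries, 953 and 1065 in the acute ones and 1595 and 961 in the chronic ones (replicates 1 and 2 throughout). Their median depth was between 7575 UMIs (chronic 1) and 14870 UMIs (healthy 1), and that of superficial cells between 10217 and 19819. Between 2.31% and 8.73% of high-uroplakin cells were marked as doublets by their Scrublet score. How many cells of a library were marked was set beforehand from its cell number, so these shares do not measure a doublet rate. Antimicrobial, detoxification and cornified-envelope genes had higher summed levels in healthy 2, acute 2 and chronic 1 than in the other library of the same condition. For cornified-envelope genes the sums were 37583, 51589, 35067, 49748, 50136 and 40723 CPM (the usual scaling of a gene's UMIs to a fixed total per class) in healthy 1, healthy 2, acute 1, acute 2, chronic 1 and chronic 2. All values by library below are in that order.

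Cells on both sides of the rank limit are described here without a test. In chronic 1 the 50 cells on the inner side had a median of 19 UMIs of Upk2 and Upk3a and 9 of Krt5 and Krt15, against 28 and 14 on the outer side. In healthy 2 the medians were 19 and 13 inside and 20 and 14 outside. In healthy 1 and chronic 1 all 50 inner cells shared 1 tied rank value (-0.693) and were taken in barcode order. Their medians there describe that value only. In the other libraries the rank values ran on across the limit. Over all high-uroplakin cells of a library there were medians of 20 to 32 UMIs of Upk2 and Upk3a and 6 to 9 UMIs of Krt5 and Krt15.

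Upk3a, which the rule used, was the 15th most abundant of 14348 genes in these cells, with 4359 ± 858 CPM (SD, n = 6 libraries). It was at 5931 ± 963 CPM in superficial cells and at 1106 ± 563 CPM in basal-near cells. Upk2 was at 997 ± 326, 1654 ± 388 and 342 ± 175 CPM in the same order, and Ugt2b34, a glucuronosyltransferase that conjugates lipophilic compounds, at 547 ± 78.6, 210.5 ± 87.2 and 494 ± 77.8 CPM. The gate required a UMI of Ugt2b34 in intermediate but not in superficial cells, which bears on that difference. Acer2, an alkaline ceramidase, was at 179.5 ± 40.4 CPM in high-uroplakin cells and at 1178 ± 272 CPM in superficial cells, which its use in the gate sets. More abundant than Upk3a were S100a6 (31690 CPM), the glutathione transferase Gstm1 (29550 CPM), Tmsb4x, the ferritin light chain Ftl1, Ly6d, Sprr1a (5929 CPM) and Wfdc2.

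Of the markers given for these cells, 3 were not used by the rule. Defb1 (ENSMUSG00000044748), a beta-defensin that kills bacteria, was at 169.9, 206, 173, 185, 109.8 and 111 CPM in high-uroplakin cells and at 107, 101, 38.0, 53.03, 35.8 and 36.7 CPM in superficial cells. Every high-uroplakin library was thus above every superficial one, and basal-near cells lay between 60.4 and 91.6 CPM. Wfdc2, a secreted whey-acidic-protein family member, was at 5156 ± 1105 CPM, higher than in superficial cells in 6 of 6 libraries (mean log2 ratio 0.79 ± 0.26, SD) but not apart from basal-near cells (5249 CPM, log2 ratio -0.03 ± 0.11). Akr1b3, the aldose reductase that makes sorbitol, was at 2723 CPM, above basal-near cells in 6 of 6 libraries (log2 ratio 0.71 ± 0.24) and above superficial cells in 5 of 6 (0.16 ± 0.19). Of these 3 markers only Defb1 was higher than in both superficial and basal-near cells in all 6 libraries. Against middle cells, at 154, 159, 134, 166, 116 and 108 CPM, it was higher in all libraries but chronic 1.

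**Figure D1:**
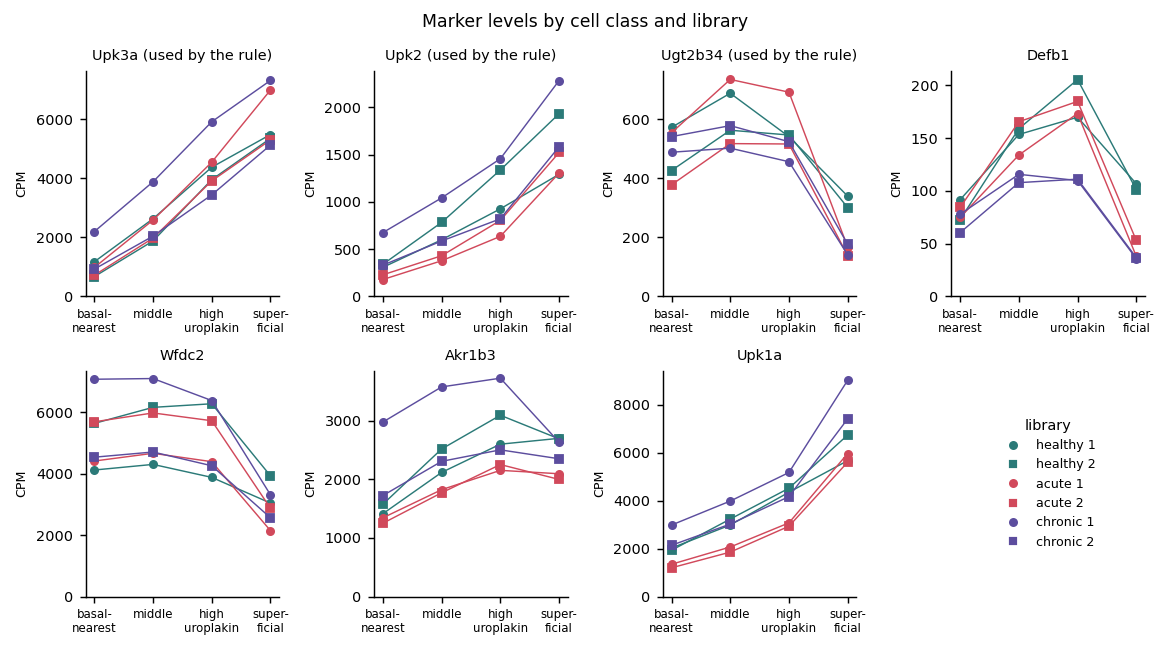
Levels (CPM of summed UMIs, linear axes from 0) of 7 genes in basal-near, middle, high-uroplakin and superficial cells, 1 line per library. Upk3a, Upk2 and Upk1a climb through the 4 classes in all libraries, while Defb1 and Wfdc2 are lower in superficial than in high-uroplakin cells in 6 of 6 libraries.

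The uroplakins that the rule did not use followed those it did. Upk1a was at 4351, 4518, 3073, 2933, 5174 and 4168 CPM in high-uroplakin cells and at 5668, 6738, 5966, 5606, 9019 and 7411 CPM in superficial cells, so that the acute libraries were lowest among the high-uroplakin ones. Upk1b was at 1749 ± 251 CPM against 3396 ± 515 CPM in superficial cells (log2 ratio -0.96 ± 0.20), and Upk3b at 326 ± 47.7 against 478 ± 66.6 CPM (-0.55 ± 0.20). All 3 were lower than in superficial cells and higher than in basal-near cells in 6 of 6 libraries. Upk3bl went the other way between the intermediate classes, with 4.88 CPM in high-uroplakin and 33.8 CPM in basal-near cells. Since the gate chose all classes from these same cells, differences between them are described without a test.

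Against superficial cells, 6071 genes had a mean of 20 CPM or more in either class. None was at least 2-fold higher in high-uroplakin cells in 6 of 6 libraries (0%), and 18 were at least 2-fold lower (0.296%). Without a minimum size, 1520 genes were higher in 6 of 6 (25.0%) and 1230 were lower (20.3%). The genes with the lowest ratios included Fam25c, at 1326, 1531, 1376, 1599, 2570 and 2035 CPM against 3676, 6873, 7888, 9265, 9291 and 10640 CPM in superficial cells. S100a1, a calcium-binding protein, was at 571 ± 227 against 2409 ± 870 CPM, and the secreted chaperone clusterin (Clu) at 182 ± 108 against 778 ± 561 CPM. Meg3, Itm2a, Serpinb6b, Bglap2 and Paqr6 were also at least 4.14-fold lower by their mean ratio, each at under 15 CPM in high-uroplakin cells. Psca, a GPI-anchored surface protein, was at 3541 ± 1248 against 11460 ± 3267 CPM (log2 ratio -1.71 ± 0.34).

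The distance between the 2 classes changed when the Acer2 and Krt20 UMIs allowed in superficial cells were limited. Superficial cells held a median of 7 such UMIs in both healthy libraries and 13, 10, 9 and 10 in the injured ones. With a limit of 5 to 9 such UMIs, no gene was 2-fold lower in 6 of 6 libraries. The mean log2 ratio of Fam25c was -1.34 in place of -2.15 and that of S100a1 -1.05 in place of -2.06. The limit also left fewer superficial cells, 324, 267, 261, 295, 580 and 368 of 426, 402, 667, 659, 1020 and 760. In the libraries taken singly, 1 gene was 2-fold higher and 27 were 2-fold lower in high-uroplakin cells of healthy 1, and 3 and 49 in healthy 2. The counts were 134 and 124 in acute 1, 79 and 109 in acute 2, 43 and 95 in chronic 1 and 39 and 69 in chronic 2. The part of the superficial gate in this was not tested. Without healthy 1, 2 genes were 2-fold higher and 44 lower in all remaining libraries.

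Against basal-near cells, 6269 genes were compared, of which 8 were at least 2-fold higher (0.128%) and 38 at least 2-fold lower (0.606%) in 6 of 6 libraries. At any size 1098 were higher (17.5%) and 1945 lower (31.0%). Without chronic 1, 20 genes were 2-fold higher in all remaining libraries. Krt4, a keratin of stratified mucosal epithelia, was at 81.3, 75.9, 92.6, 54.8, 87.6 and 54.4 CPM in high-uroplakin cells and at 354, 385, 444, 230.1, 439 and 306 CPM in basal-near cells, with no overlap, and was already lower than in the middle cells (184 ± 35.5 CPM) in all 6. Cyp2f2, a cytochrome P450 that oxidises small aromatic compounds, was at 10.9 ± 3.56 against 94.8 ± 25.4 CPM. This was the lowest ratio among the genes counted as 2-fold lower with 50 CPM or more in either class. The alarmin Il33 was at 59.3 ± 41.9 against 246 ± 129 CPM, the cyclooxygenase Ptgs1 at 14.2 ± 2.58 against 66.3 ± 16.1 CPM and the surface antigen Ly6a at 75.5 ± 47.1 against 314 ± 148 CPM. Rgs10, Gm12840 and the potassium channel Kcnn4 were lower as well. Higher in high-uroplakin cells were Galnt16, an enzyme of O-glycosylation (97.0 ± 25.8 against 34.1 ± 17.5 CPM), and the non-coding RNAs Snhg11 and Gm13398.

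Genes of adhesion to the basement membrane were mostly lower than in basal-near cells. Of 14 hemidesmosome and integrin genes compared with basal-near cells, none was higher and 11 were lower in 6 of 6 libraries. Of all genes compared, 17.5% were higher and 31.0% lower. The median log2 ratio of the list was -0.68 against -0.07 over all genes compared. Against superficial cells 5 of 13 were higher and 3 lower, where 25.0% and 20.3% of all genes were, with a median of 0.13. Integrin beta 4 (Itgb4), the hemidesmosome receptor for laminin, was at 37.2 ± 4.64 CPM in high-uroplakin, 96.8 ± 20.7 CPM in basal-near and 25.98 ± 5.08 CPM in superficial cells. All 7 basal markers that were not used by the gate and could be compared were lower than in basal-near cells in 6 of 6 libraries. They were also higher than in superficial cells in 6 of 6. The shares of all genes were 31.0% and 25.0%. Trp63, the transcription factor that maintains basal epithelium, was at 137, 125, 139, 122, 119.7 and 187 CPM in high-uroplakin cells, at 150.1 to 285 CPM in basal-near cells and at 53.9 to 108 CPM in superficial cells.

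Transcription factors of the urothelium were mostly lower than in basal-near cells and higher than in superficial cells. Of 21 compared, 12 were lower and 1 was higher than in basal-near cells in 6 of 6 libraries, against 31.0% and 17.5% of all genes. Than in superficial cells 14 were higher and 2 lower, against 25.0% and 20.3% of all genes (median log2 ratio 0.24 against 0.03 over all genes). Klf5, a Kruppel-like factor of epithelial growth, was at 254 ± 90.3, 389.6 ± 140.2 and 170.4 ± 74.4 CPM in high-uroplakin, basal-near and superficial cells, and Klf4 at 141 ± 73.0, 420 ± 137 and 102 ± 49.6 CPM. Elf3 was at 263 ± 43.1, 333 ± 53.7 and 197 ± 23.0 CPM. The exceptions included Pparg, the nuclear receptor that drives superficial differentiation, which was lower than in superficial cells in all libraries (74.5 ± 10.2 against 95.02 ± 14.7 CPM), and Tbx2 (164 ± 21.1 against 183 ± 19.2 CPM). Of immediate-early genes, 0 of 29 were higher and 16 lower than in basal-near cells, where 17.5% and 31.0% of all genes were. Against superficial cells 11 of 28 were higher and 1 lower, where 25.0% and 20.3% of all genes were.

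Genes of sterol and fatty acid synthesis were lower in high-uroplakin than in superficial cells. Of 29 compared, 21 were lower and 2 were higher in 6 of 6 libraries, where 20.3% and 25.0% of all genes were. The median log2 ratio was -0.49 against 0.03 over all genes. Farnesyl diphosphate synthase (Fdps) was at 149.6, 109.3, 95.8, 107, 142 and 114 CPM against 218, 174, 217, 221, 265 and 225 CPM in superficial cells, and at 39.0 to 99.5 CPM in basal-near cells. The fatty acid elongase Elovl6 was at 72.6 ± 13.3 against 163 ± 37.6 CPM, and Hmgcs1, which makes the precursor of mevalonate, at 105 ± 28.9 against 174 ± 39.5 CPM. The exceptions were the desaturase Fads1, with 156 ± 28.3 against 99.98 ± 35.7 CPM, and the regulator Srebf1. Against basal-near cells the list was tilted the other way, with 15 of 29 higher and 3 lower in 6 of 6. There 17.5% and 31.0% of all genes were, and the median log2 ratio of the list was 0.24.

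Sterol genes are known targets of SREBP factors, which act with NF-Y at CCAAT boxes, so the promoters of a pair of list members that were lower than in superficial cells in all libraries are shown. Both sequences are the 250 bases before the RefSeq transcription start in GRCm38.p6, 5' to 3' along the gene. Capitals mark CCAAT on either strand and, in Hmgcs1, CACCCCAC. Hmgcs1 lies at chr13:119690101-119690350 on the plus strand and Msmo1, a sterol demethylating enzyme, at chr8:64733579-64733828 on the minus strand.
Hmgcs1: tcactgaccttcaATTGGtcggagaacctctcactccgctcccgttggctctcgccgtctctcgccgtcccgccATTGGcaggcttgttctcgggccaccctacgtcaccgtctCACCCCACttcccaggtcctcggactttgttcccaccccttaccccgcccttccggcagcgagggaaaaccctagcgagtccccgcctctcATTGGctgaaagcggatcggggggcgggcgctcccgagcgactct
Msmo1: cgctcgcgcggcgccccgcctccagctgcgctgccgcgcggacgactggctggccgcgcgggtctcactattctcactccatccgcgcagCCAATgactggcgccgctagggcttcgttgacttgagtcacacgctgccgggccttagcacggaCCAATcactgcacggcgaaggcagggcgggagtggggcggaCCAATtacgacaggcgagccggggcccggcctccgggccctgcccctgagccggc
CCAAT, searched on both strands, was found in 15 of the 21 promoters of the list that matched by symbol (71.4%) and in 34.5% of all 27025 promoters of the same length. It was also found in 15 of 28 promoters of p53 targets (53.6%) and 12 of 27 of interferon-responsive genes (44.4%). CACCCCAC was found in 1 of the 21 (4.76%), that of Hmgcs1, and in 2.51% of all. These matches describe letters only, and binding was not measured.

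Lipid genes beside the sterol pathway and the apparatus that carries uroplakin vesicles were mixed. Of 17 ceramide and sphingolipid genes, 10 were lower and 4 higher than in superficial cells in 6 of 6 libraries (median log2 ratio -0.27). Of all genes 20.3% were lower and 25.0% higher, so that the higher ones were near that share. Among the lower was the ceramide synthase Cers3, at 83.1 ± 16.7 against 159.8 ± 40.4 CPM. Glucosylceramide synthase (Ugcg) was higher, at 134 ± 53.4 against 86.5 ± 36.1 CPM. Of 27 vesicle genes 8 were lower and 5 higher, near the 20.3% and 25.0% of all genes. Snx31, a sorting nexin that binds uroplakins, was at 246 ± 30.3 against 435 ± 34.1 CPM in superficial and 127 ± 21.9 CPM in basal-near cells. Rab27b was at 396 ± 41.7, 539 ± 73.8 and 338 ± 44.6 CPM in the same order. The claudin Cldn8 was at 57.9 ± 8.35 against 162 ± 44.2 CPM in superficial cells, while Cldn4 was higher, at 1339 ± 434 against 975 ± 329 CPM.

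Detoxification genes, which include glutathione transferases and aldehyde dehydrogenases, were mostly lower than in basal-near cells. Of 50 compared with superficial cells, 26 were higher and 10 lower in 6 of 6 libraries (median log2 ratio 0.22), where 25.0% and 20.3% of all genes were. Of 54 compared with basal-near cells, 8 were higher and 31 lower (-0.23), where 17.5% and 31.0% of all genes were. Gsto1 was at 1523 ± 386 CPM, against 902 ± 270.4 CPM in superficial and 2692 ± 714 CPM in basal-near cells. Nqo1, a quinone reductase, was at 145 ± 49.2, 83.0 ± 27.2 and 268 ± 76.7 CPM in high-uroplakin, superficial and basal-near cells. Gstm1 and the flavin monooxygenase Fmo5 (2350 ± 260.3, 2752 ± 188 and 1381 ± 309.7 CPM) were higher than in basal-near cells. Of 62 genes of oxidative phosphorylation, 36 were higher and 2 lower than in basal-near cells, with a median log2 ratio of 0.13. There 17.5% of all genes were higher and 31.0% lower. Against superficial cells 20 were higher and 8 lower, where 25.0% and 20.3% of all genes were, with a median of 0.05. The plot of gene lists shows the spread of the ratios within 9 lists.

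**Figure D2:**
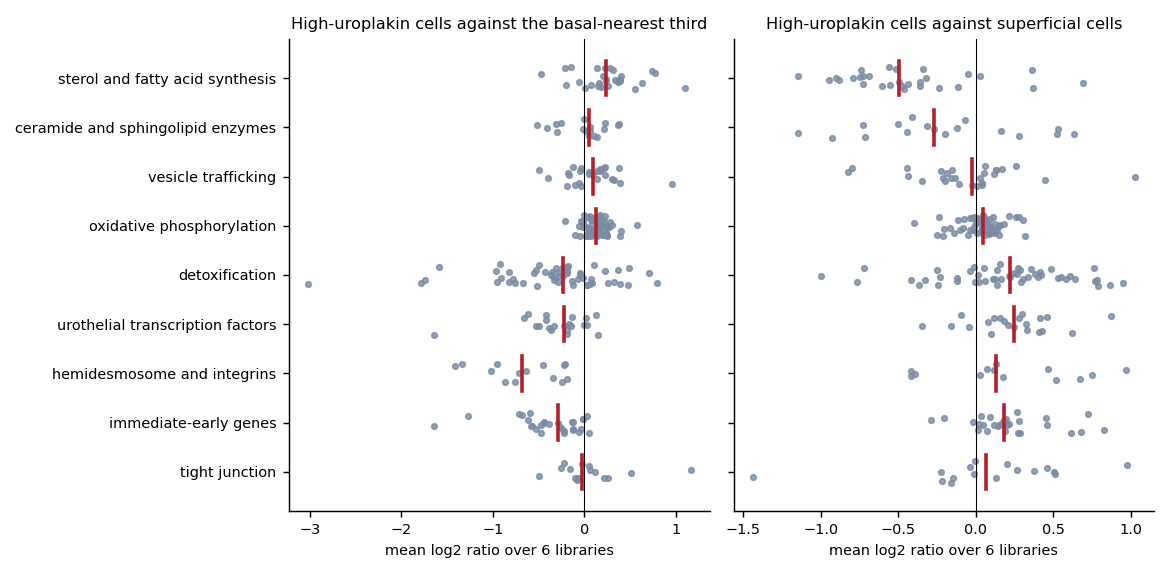
Mean log2 ratio over 6 libraries of each gene (points) in 9 lists, high-uroplakin against basal-near cells on the left and against superficial cells on the right, with the list median as a bar. Sterol and fatty acid genes have medians of 0.24 and -0.49, hemidesmosome and integrin genes a median of -0.68 on the left.

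The spread between single high-uroplakin cells was measured gene by gene. The measure was the ratio of variance to that expected from counting alone at each cell's depth. Of 3091 genes at 50 CPM or more, 45 had a ratio above 2 in every library. The median gene had a lowest ratio of 0.994, near that of counting alone. The 10 genes with the largest ratios were Malat1, Ftl1, Sprr2a3, Sprr2f, Gstm1, S100a6, Sprr1a, Psca, Wfdc2 and Tmsb4x, with lowest ratios from 5.05 (Tmsb4x) to 19.0 (Malat1). Where cells differ, this ratio rises with the level of a gene. S100a6, Gstm1, Tmsb4x and Ftl1 were the 4 most abundant genes, so the order does not rank spread relative to level. Sprr2a3, Sprr2f and Sprr1a are small proline-rich proteins, which are cross-linked into barriers. Of the 10 genes, Sprr2f alone was missing from most cells of every library. A UMI of Sprr2f was found in 9.02%, 26.5%, 20.8%, 27.6%, 49.0% and 49.2% of high-uroplakin cells, so that the chronic libraries had the highest shares.

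Collagen-high cells, which should lack Sprr2f, held a UMI in 1.11%, 3.37%, 1.88%, 5.07%, 12.6% and 14.8% of cells, at median depths of 2515 to 5057 UMIs. With high-uroplakin cells thinned to 5000 UMIs the shares were 4.59%, 19.5%, 16.9%, 18.7%, 43.3% and 37.5%, against 1.22%, 3.27%, 0.948%, 4.46%, 15.8% and 23.3% of collagen-high cells thinned alike, of which the chronic libraries held only 19 and 30. Both sets of cells thus had their highest shares in the chronic libraries, and the part of free RNA was not tested. As a summed level Sprr2f was at 65.1, 261, 253, 319, 551 and 483 CPM, a log2 difference of 1.67 ± 0.60 (SE) between chronic and healthy that did not pass the test (adjusted p = 0.998, edgeR quasi-likelihood test over 11887 genes). Sprr2 genes are near-identical copies, and how the counting split reads between them is not given in the sources used here.

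**Figure D3:**
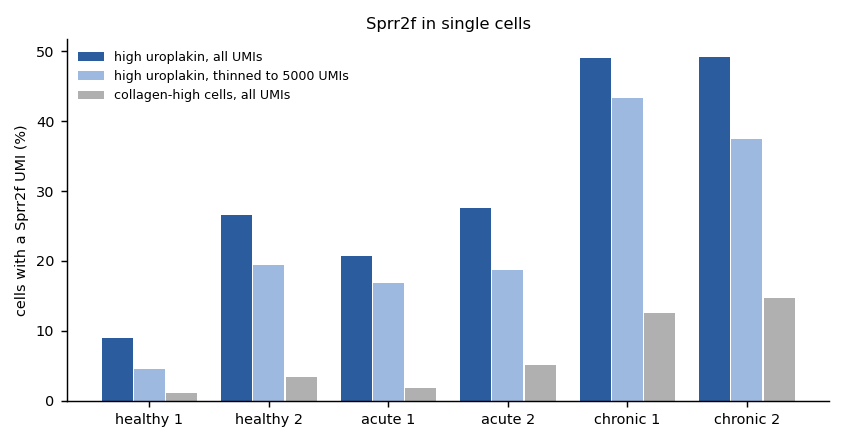
Percent of cells with at least 1 Sprr2f UMI in each library, for high-uroplakin cells with all UMIs, the same cells thinned to 5000 UMIs, and collagen-high cells with all UMIs. The chronic libraries reach 49.0% and 49.2% of high-uroplakin cells against 9.02% and 26.5% in the healthy ones.

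To ask how the cells responded to injury, UMIs were summed over the high-uroplakin cells of each library and compared with edgeR, with 2 libraries per condition and adjustment over all 11887 genes tested. No gene passed an adjusted p of 0.05 in the acute, the chronic or the acute against chronic comparison. The counts at an unadjusted p below 0.05 were 270, 485 and 445, and DESeq2 called 8, 23 and 0. The smallest adjusted p values were 0.419, 0.0971 and 0.992. Leaving out the genes of the rule, 0% of 11866 genes were called in either direction in all 3 comparisons. At an unadjusted p below 0.05, 1.66% were higher and 0.590% lower in acute, and 2.49% higher and 1.57% lower in chronic libraries. In data simulated for the acute comparison 78.8% of 99 4-fold and 9.09% of 99 2-fold changes were recovered, so that 2-fold changes were mostly not detectable with these libraries. Beside them 10 unchanged genes were called, a larger part of the calls than the 0.05 aimed at. Without acute 1 the test called 76 genes against healthy and 59 against chronic, and without healthy 2 it called 11 in chronic. Values of all genes below are therefore levels and differences, not calls. Levels of single genes are CPM with TMM scaling (a factor per library that evens out the bulk of genes). Sums over lists are CPM without it.

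Neither the uroplakins outside the rule nor Defb1 and Wfdc2 passed the test by edgeR. Upk1a differed by -0.54 ± 0.22 (log2, SE) in acute against healthy libraries (adjusted p = 1.00 by edgeR) and by 0.08 ± 0.22 in chronic ones. Upk1b differed by -0.23 ± 0.22 and 0.01 ± 0.22, and Upk3b by -0.31 ± 0.22 and 0.01 ± 0.22. Defb1 was at 166, 208, 165, 198, 112 and 109 CPM, with both chronic libraries below the other 4, and differed by -0.76 ± 0.21 between chronic and healthy (adjusted p = 0.930 by edgeR). Wfdc2 was at 3796, 6369.9, 4178, 6139, 6519 and 4164 CPM, with overlap between all conditions.

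Targets of p53, which is activated by DNA damage such as that of alkylating agents, had higher levels in many injured libraries. Both acute libraries were above both healthy ones for 20 of 34 targets (12.9% of all genes) and both chronic ones for 22 (15.9%). Of the 34 targets tested, none was called by edgeR. At an unadjusted p below 0.05, 9 were higher and 0 lower in acute and 14 higher and 0 lower in chronic libraries. Of all genes, 1.66% were higher and 0.590% lower at that p in acute, and 2.49% and 1.57% in chronic. Without acute 1 the acute counts were 5 higher and 1 lower. The median log2 differences of the targets were 0.37 and 0.58, against 0.01 and 0.00 over all genes. Cdkn1a, the p21 inhibitor of the cell cycle, was at 148, 187, 336, 199, 457 and 341 CPM, all injured libraries above both healthy ones (log2 difference 0.67 ± 0.29 in acute and 1.25 ± 0.29 in chronic). DESeq2 called Cdkn1a in chronic (adjusted p = 0.0466). Bax, which promotes apoptosis, was at 137, 167, 223, 253, 236 and 212 CPM (0.65 ± 0.20 and 0.56 ± 0.20), and Ccng1 at 91.8, 118, 221, 132, 203 and 202 CPM. The stress cytokine Gdf15 was at 0.511, 0.504, 3.28, 2.84, 5.24 and 5.90 CPM, levels of few UMIs. Mdm2, at 54.1, 50.6, 79.4, 44.5, 63.6 and 76.4 CPM, overlapped between healthy and acute libraries. The abundant Btg2, at 767, 862, 725, 884, 798 and 786 CPM, overlapped between healthy and both injuries. Over the alternatives of cells, scaling, tests and libraries, the median lay between 0.30 and 0.51 in acute and between 0.38 and 0.63 in chronic. Both comparisons share the healthy libraries.

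Many interferon-responsive genes had higher levels in injured libraries, without passing the test. Of 31 tested, none was called by edgeR. At an unadjusted p below 0.05, 12 were higher and 1 lower in acute and 10 higher and 1 lower in chronic libraries, with medians of 0.67 and 0.81. The shares of all genes at that p were 1.66% higher and 0.590% lower in acute, and 2.49% and 1.57% in chronic. Without healthy 2 the counts were 1 higher and 3 lower in acute (median 0.36) and 1 and 2 in chronic (0.52), and without acute 2 they were 3 and 1 in acute (0.40). Usp18, which restrains interferon signalling, was at 24.4, 22.5, 33.6, 37.0, 37.8 and 38.6 CPM, and Lgals3bp at 80.0, 60.8, 114, 110.4, 159 and 194 CPM, without overlap between healthy and injured libraries. DESeq2 called Lgals3bp in chronic (adjusted p = 0.000626). Ifit1 was at 2.86, 1.51, 12.1, 10.4, 3.28 and 17.2 CPM, and Isg15 at 2.25, 0.630, 4.49, 20.01, 3.41 and 6.80 CPM, both at levels of few UMIs. By contrast B2m, the light chain of MHC class I, was highest in healthy 1 (1122 CPM, then 466, 716, 444, 628 and 697), and Cxcl10 was at 17.2, 8.94, 4.83, 3.11, 6.95 and 2.86 CPM. The summed level of the list was 3367, 1827, 2771, 2408, 2868 and 2935 CPM, with healthy 1 above all others, so that the sum and the median of the differences disagree.

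The markers of macrophages and antigen-presenting cells, 12 genes of which none was at 0 in all libraries, summed to 196 and 207 CPM in healthy, 80.1 and 216 CPM in acute and 268 and 302 CPM in chronic high-uroplakin cells. Of these 12, 11 had both chronic libraries above both healthy ones, as 15.9% of all genes did. Mesenchymal markers summed to 679 to 1465 CPM, lymphoid markers to 2.72 to 15.2 CPM and endothelial markers to 2.36 to 14.5 CPM. Their part in the interferon levels was not tested.

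Promoters of this list hold the sequence that interferon-activated factors are known to bind, and those of Bst2, which tethers budding virus, and Ifit1 are shown as examples. They are again the 250 bases before the RefSeq start in GRCm38.p6, and capitals mark GAAANNGAAA on either strand, with the 2 overlapping matches of Bst2 running together. Bst2 lies at chr8:71537473-71537722 on the minus strand and Ifit1 at chr19:34640639-34640888 on the plus strand.
Bst2: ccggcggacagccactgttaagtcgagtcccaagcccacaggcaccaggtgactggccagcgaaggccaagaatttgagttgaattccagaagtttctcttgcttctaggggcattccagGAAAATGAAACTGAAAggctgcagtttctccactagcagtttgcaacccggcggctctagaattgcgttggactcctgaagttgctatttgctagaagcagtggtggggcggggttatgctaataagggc
Ifit1: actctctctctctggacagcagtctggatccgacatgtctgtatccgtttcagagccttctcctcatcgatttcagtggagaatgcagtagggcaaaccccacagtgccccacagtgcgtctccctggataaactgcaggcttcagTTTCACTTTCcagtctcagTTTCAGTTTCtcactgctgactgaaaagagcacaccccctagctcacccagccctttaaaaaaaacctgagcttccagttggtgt
GAAANNGAAA was found in 12 of the 27 matched promoters of the list (44.4%), in 3.04% of all 27025 and in 1 of the 28 matched promoters of the p53 list. Bst2 was at 60.6, 31.9, 74.5, 74.9, 54.4 and 73.9 CPM, with both acute libraries above the healthy ones and the chronic ones overlapping with them.

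Detoxification genes had a median log2 difference of 0.09 in acute and 0.37 in chronic libraries. Of 64 tested, none was called by edgeR. At an unadjusted p below 0.05, 4 were higher and 1 lower in acute and 11 higher and 2 lower in chronic. All genes had 1.66% higher and 0.590% lower at that p in acute, and 2.49% and 1.57% in chronic. Gpx2, a glutathione peroxidase of epithelia, was at 79.9, 121, 161, 243, 277 and 226 CPM, the injured libraries all above the healthy ones, and DESeq2 called it in chronic (adjusted p = 0.0185). The epoxide hydrolase Ephx1 was at 29.4, 31.7, 42.3, 39.5, 74.6 and 57.4 CPM and differed by 1.11 ± 0.22 in chronic (adjusted p = 0.504 by edgeR and 0.0212 by DESeq2). Cyp1b1 was at 26.6, 28.0, 17.4, 9.06, 15.99 and 6.62 CPM. The acute median changed sign to -0.05 without acute 2, and the chronic median was 0.02, with 4 higher and 4 lower, without chronic 1. Without healthy 1 the chronic counts were 5 higher and 1 lower, and without chronic 2 they were 18 and 2. Sterol and fatty acid genes had medians of -0.22 and -0.11, with 0 of 31 higher and 2 lower at that p in acute. The acute median was -0.54, with 8 lower, without acute 1 and -0.06, with 0 lower, without acute 2. The plot of gene lists by injury sets these lists side by side.

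**Figure D4:**
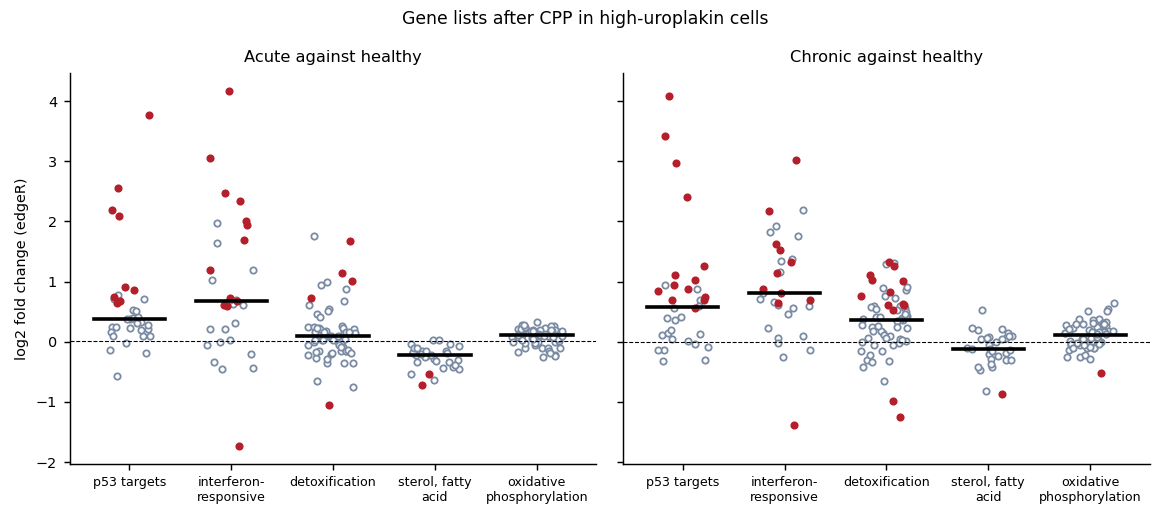
Log2 fold change (edgeR) of each gene of 5 lists in high-uroplakin cells, acute against healthy on the left and chronic against healthy on the right. Filled points have an unadjusted p below 0.05, bars are list medians, the dashed line is the median of all genes, and no gene passed the adjusted threshold.

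The remaining genes with the smallest p values are given as levels. In chronic against healthy libraries Gpnmb, a glycoprotein of lysosomal stress, was at 103 and 96.1 against 47.5 and 45.1 CPM (log2 difference 1.10 ± 0.20, adjusted p = 0.386 by edgeR), and Sprr2b at 48.6 and 52.8 against 9.80 and 23.2 CPM. The elongation factor subunit Eef1b2 was at 4049 and 4023 CPM in healthy, 2675 and 2785 CPM in acute and 1619 and 1901 CPM in chronic libraries, a difference of -1.20 ± 0.20 between chronic and healthy (adjusted p = 0.352 by edgeR). Gnb2l1, a scaffold of the small ribosomal subunit, was at 3177, 3418, 2183, 2209, 1677 and 1919 CPM, and Tpt1 at 8585, 9857, 6340.3, 8034, 2984 and 4884 CPM. Tpt1 and Eef1b2 have processed copies in the genome that can share reads. DESeq2 called all 5 of these genes, with adjusted p from 2.42e-05 (Eef1b2) to 0.0314 (Sprr2b). In acute libraries Nr1d1, a repressor of the circadian clock, was at 45.9 and 61.0 against 93.2 and 97.9 CPM, Zfp266 at 102 and 138 against 72.0 and 76.5 CPM and Sbsn at 76.1 and 66.9 against 47.5 and 49.1 CPM. Ifi27l2a, an interferon-inducible gene, was at 42.8, 30.5, 56.8, 181, 95.4 and 115 CPM. Tuba1b, an alpha-tubulin, was at 119.7 and 123 CPM in acute, 168 and 223 CPM in healthy and 213 and 210.2 CPM in chronic libraries. Between acute and chronic libraries Npm1, a nucleolar chaperone, was at 1037 and 1178 against 551 and 597 CPM, and the peroxisomal thiolase Acaa1b at 285 and 310.2 against 523 and 457 CPM. Rnaset2b was at 41.8 and 36.8 in acute against 80.1 and 141 CPM in chronic. Ankrd11, Zcchc7, Herc4 and Gm42418 were at higher and Ap1m2 and Tuba1c at lower levels in both acute than in both chronic libraries.

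Globin mRNA had the largest differences but also appeared in cells that should lack it. Hbb-bs was at 361, 165, 1.21, 0.406, 25.8 and 5.72 CPM. A Hbb-bs UMI was found in 23.7% and 34.8% of healthy high-uroplakin cells and in 10.4% and 24.0% of healthy collagen-high cells, at median depths of 14870 and 10874 against 5057 and 3245 UMIs. Thinned to 5000 UMIs the shares were 9.26% and 17.7% against 9.13% and 19.6%. In the chronic libraries at most 30 collagen-high cells were deep enough for this comparison, and the part of free RNA was not tested. In healthy 1, 1 high-uroplakin cell alone held 2073 Hbb-bs UMIs.

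Whether injury moved these cells and superficial cells by unequal amounts was tested with the interaction of class and condition in 1 fit over the 12 sums, with library as a block. For acute injury 259 genes had a higher and 147 a lower change in high-uroplakin than in superficial cells, and for chronic injury 60 and 27. Without the genes of the rule these are 2.09% and 1.19% of 12177 genes for acute and 0.485% and 0.222% for chronic. In data simulated for the acute interaction 90.0% of 4-fold and 69.7% of 2-fold changes were recovered, with 20 unchanged genes called among 12050.

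These counts changed with the superficial gate. With superficial cells limited to 5 to 9 UMIs of Acer2 and Krt20, 21 genes had a higher and 30 a lower change in acute, and 14 and 29 in chronic. The limit also left fewer superficial cells. In both fits a UMI of Ugt2b34 and the cut by rank in each library were required of high-uroplakin cells only. Superficial cells of the full gate held medians of 2.5, 2, 1, 1, 0 and 1 Ugt2b34 UMIs. The part of these points in the calls was not tested. Of the 400 acute calls outside the rule genes, 39 were called again (9.75% of 400 and 81.2% of the 48 with the limit), and of the 86 chronic calls 23 (26.7% of 86 and 54.8% of 42). The sign was the same for 399 of 399 and 86 of 86 genes tested both ways, while the median size went from 0.63 to 0.39 in acute and from 0.56 to 0.42 in chronic. Both fits used the same high-uroplakin cells, and the limited superficial cells are part of the full set. Equal signs were thus close to given and are not independent support. Without healthy 1 the calls were 100 in acute and 10 in chronic, without acute 1 they were 187 and 137, and without chronic 1 and chronic 2 the chronic calls were 9 and 24.

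The genes with the smallest p for this difference remained called with the limited gate. Defb1 was at 167 and 207 CPM in healthy, 165 and 194 CPM in acute and 109.6 and 108 CPM in chronic high-uroplakin cells. In superficial cells it was at 105 and 104, then 36.8 and 56.8, then 35.7 and 37.0 CPM, so that all 4 injured libraries lay below both healthy ones there, while in high-uroplakin cells the acute ones overlapped with them. The difference of the changes was 1.13 ± 0.13 (log2, SE) in acute (adjusted p = 3.96e-08, edgeR) and 0.76 ± 0.13 in chronic (adjusted p = 0.00196), and 0.48 and 0.53 with the limited gate. Idh1, the cytosolic isocitrate dehydrogenase that makes NADPH, was at 773, 628, 774, 597, 793 and 738 CPM in high-uroplakin cells and at 612, 477, 295, 267, 368 and 375 CPM in superficial cells, which gave 0.91 ± 0.10 in acute (adjusted p = 5.38e-09, edgeR) and 0.68 ± 0.10 in chronic. Enho, which encodes a secreted peptide, was at 611, 317, 379, 371, 223 and 261 CPM against 386, 166, 97.5, 94.3, 78.6 and 115 CPM (acute 1.19 ± 0.11, adjusted p = 1.12e-10 by edgeR).

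Igfbp2, a binding protein of insulin-like growth factors, was at 542, 1109, 552, 1032, 1414 and 872 CPM in high-uroplakin and at 386, 694, 207, 382, 607 and 428 CPM in superficial cells, with 0.84 ± 0.10 in acute and 0.54 ± 0.10 in chronic. The carbonyl reductase Cbr2 differed by 0.91 ± 0.11 in acute. Trp63 was at 134, 126, 132, 128, 119.5 and 181 CPM in high-uroplakin cells and at 106, 99.9, 54.8, 57.8, 53.9 and 95.6 CPM in superficial cells (chronic 0.70 ± 0.12, adjusted p = 0.00108 by edgeR). Cldn8 went the other way, at 63.1, 60.7, 59.1, 45.2, 53.1 and 62.6 CPM against 110.1, 126, 203, 144, 204 and 193 CPM (chronic -0.86 ± 0.13, adjusted p = 4.67e-05 by edgeR). In high-uroplakin cells the healthy and chronic libraries overlapped for both genes. The chronic calls of Defb1 and Igfbp2 were lost without healthy 1 (adjusted p = 0.319 and 0.399, edgeR) and without chronic 1 (adjusted p = 0.118 and 0.182, edgeR), and that of Trp63 without chronic 1 (adjusted p = 0.102, edgeR).

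Among the lists, detoxification genes had 10 of 64 members with a higher and 1 with a lower change than in superficial cells in acute, against 2.09% and 1.19% of all genes. In chronic there were 3 and 0, against 0.485% and 0.222% of all genes. The microsomal glutathione transferase Mgst2 was at 235, 249.3, 338, 458, 437 and 293 CPM in high-uroplakin cells and at 184, 186, 162, 221, 224 and 180 CPM in superficial cells (acute 0.67 ± 0.10, adjusted p = 2.00e-05 by edgeR). Sterol and fatty acid genes had 1 of 31 higher and 7 lower in acute, with a median of -0.40. For Fdps the difference was -0.52 ± 0.11 (adjusted p = 0.00192 by edgeR), and for Elovl6 -0.73 ± 0.12, and neither was among the acute calls with the limited gate. Basal markers had 5 of 8 higher. With the limited gate 3 of these detoxification genes (Cbr2, Mgst2 and Nqo1) and 0 of these sterol genes and basal markers were called again in acute. All 3 uroplakins outside the rule that were called had a lower change in acute, at -0.47 ± 0.10 for Upk1a, -0.45 ± 0.09 for Upk1b and -0.46 ± 0.10 for Upk3b (adjusted p = 0.00146, 0.00183 and 0.00165, edgeR), and 0 of 4 were called in chronic. None of these 3 was among the calls with the limited gate, while Snx31 (-0.59 and, limited, -0.39), Psca (-0.65 and -0.57), S100a14 (-0.60 and -0.53) and Il1rn (-0.70 and -0.72) were called both ways.

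**Figure D5:**
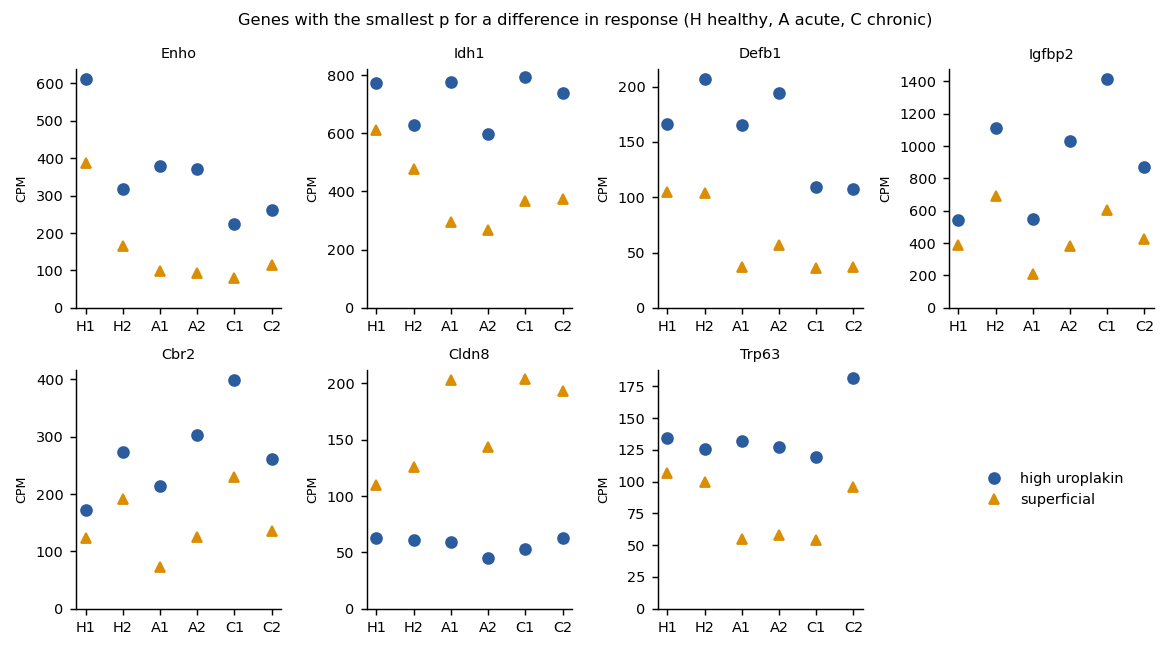
Levels (CPM with TMM scaling, linear axes from 0) of the 7 genes with the smallest p for a difference in response, in high-uroplakin cells (circles) and superficial cells (triangles) of each library. Defb1, Idh1, Enho, Igfbp2, Cbr2 and Trp63 lie above and Cldn8 below the superficial level in all 6 libraries.

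The share of gated intermediate cells among gated urothelial cells was 68.1%, 55.4%, 62.3%, 56.3%, 52.1% and 62.6%, and the condition groups overlapped (exact permutation test, two-sided, p = 1 for acute and 0.667 for chronic against healthy, where 0.333 is the smallest p that 2 against 2 libraries allow). Since the rule keeps an equal part of every library, the range of uroplakin was compared at 1 common rank value after thinning all cells to 5000 UMIs. Below it lay 43.9%, 33.3%, 33.4%, 28.8%, 52.2% and 29.1% of gated intermediate cells, given as a description since the rank uses genes of the rule. Acute 1 lay level with healthy 2, and the chronic libraries lay on both sides of the healthy ones. Chronic 1, whose cells were shallowest, was highest, and thinning left out 1157 of its 4768 gated cells, against 68 to 222 elsewhere. Superficial cells made up 7.75%, 5.71%, 14.7%, 11.6%, 11.1% and 16.5% of gated urothelial cells, the injured libraries above the healthy ones. This is given as a description, since a fixed count of Acer2 and Krt20 UMIs sets the class. Of these 426, 402, 667, 659, 1020 and 760 cells, 324, 267, 261, 295, 580 and 368 held 5 to 9 such UMIs. That was a smaller part in the injured than in the healthy libraries, and the part of the gate in the shares was not tested.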

How the data were processed

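Per the labels, 6 bladder mucosa libraries were aligned and counted by the authors with Cell Ranger on mm10, and the deposited tables hold UMI counts per gene and cell. Of the cells that passed the keratin gate, all but 1 had under 10% mitochondrial UMIs. Of 14450 genes common to all tables, 13 mitochondrial and 89 ribosomal genes were left out. Counts were summed per library and class. Levels are CPM of these sums. Class ratios are log2 of CPM with 1 added, counted at 2-fold in 6 of 6 libraries and 20 CPM in either class, without a test. Conditions were compared with edgeR 4.0.16 (TMM, filterByExpr, quasi-likelihood test, Benjamini-Hochberg adjustment at 0.05) over all 6 libraries, with DESeq2 1.42.0 as an alternative, and tested on simulated data. How mice were divided between the 2 libraries of a condition is not given in the sources used here. By the paper, the samples went through processing and sequencing in batches. Which library was in which batch is not given in the sources used here, and no fit included a known batch. The p-values between conditions measure the spread between these libraries. Those of the interactions, with library as a block, measure how the difference between the 2 classes varies across them. Cells marked as doublets by Scrublet score (scanpy 1.11.5) were kept. Motifs were sought in the 250 bases before each RefSeq start. The table of healthy 1 holds 15213 complete gene lines and ends in 1 incomplete line, so genes beyond it were not used here, and acute 2 was counted with a newer annotation.

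Members, gene lists and tests were chosen with earlier results of these data known. Named genes were the rule and marker genes, the 8 largest and smallest class ratios at 50 CPM or more, and called list members. Up to 6 genes per direction with the smallest p between conditions and the 5 smallest p of each interaction were named too. So were the 10 genes with the largest ratio of variance to that expected from counting. Further list members were named as examples after their values were seen.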

Additional observations from a re-analysis of the deposited data

Results flagged for a closer look

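The change under injury differed between high-uroplakin and superficial cells, by the interaction term of edgeR, for each gene with the smallest p. In acute libraries the log2 change was higher in high-uroplakin cells by 1.19 ± 0.11 (SE) for Enho, 0.91 ± 0.10 for Idh1, 1.13 ± 0.13 for Defb1, 0.84 ± 0.10 for Igfbp2 and 0.91 ± 0.11 for Cbr2. In chronic libraries it was higher by 0.68 ± 0.10 for Idh1, 0.70 ± 0.12 for Trp63, 0.76 ± 0.13 for Defb1 and 0.54 ± 0.10 for Igfbp2, and for Cldn8 the difference was -0.86 ± 0.13.

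With superficial cells limited to 5 to 9 UMIs of Acer2 and Krt20, an alternative chosen after seeing the data, the acute values were 0.67, 0.46, 0.48, 0.48 and 0.44 for Enho, Idh1, Defb1, Igfbp2 and Cbr2. The chronic values were 0.45 for Idh1, 0.50 for Trp63, 0.53 for Defb1, 0.33 for Igfbp2 and -0.67 for Cldn8. All 10 were called with this limit too (adjusted p from 0.000633 to 0.0447, edgeR), in a fit that shares its cells with the first. Both fits required a UMI of Ugt2b34 of high-uroplakin cells only, and the part of this was not tested.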

How the results depend on the processing

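Across the alternatives, the genes with the smallest p between conditions and the 10 interaction results with the smallest p kept their direction, and 3 of the latter (chronic Trp63, Defb1 and Igfbp2) lost their call without healthy 1 or chronic 1. Other list members named for the interaction were recomputed only with the limited gate. With DESeq2, 8 genes were called in acute, 23 in chronic and 0 in acute against chronic libraries, and 114 and 16 in the acute and chronic interactions. Leaving out each replicate gave 0 to 76 genes in acute (76 without acute 1), 0 to 11 in chronic (11 without healthy 2), 0 to 59 between them (59 without acute 1), 100 to 370 in the acute and 9 to 137 in the chronic interaction. Limiting superficial cells to 5 to 9 UMIs, chosen after seeing the data, gave 51 and 43 interaction calls, and no filter on low counts gave 164 chronic ones. The cause was not tested.

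The replicate numbers did not pair the libraries alike in all conditions. The correlations of deviations were 0.230 for healthy with acute, -0.307 for healthy with chronic and -0.147 for acute with chronic. Whether the batches named by the paper have a part in this was not tested. With the replicate block 3 genes were called in acute (Hbb-bs, Hba-a1 and Hba-a2), 2 in chronic (Hbb-bs and Hba-a2) and 0 between acute and chronic. With the numbers of the chronic libraries crossed, chosen after seeing the data, the replicate block gave 1, 5 and 0 calls.

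Against superficial cells, 1 gene was 2-fold higher with no minimum CPM and 1 with the lower of 2 equal parts of the rank kept, and 0 to 2 when a library was left out. Lower genes numbered 46 with no minimum, 0 with the limited gate and 18 to 44 when a library was left out. Against basal-near cells, higher genes numbered 20 with no minimum, 19 with the lowest of 4 parts, 2 with the lower of 2 parts and 7 to 20 when a library was left out, and lower genes 64 with no minimum, 16 with the lower of 2 parts and 37 to 51. The acute median of detoxification genes ranged from -0.0506 (without acute 2) to 0.15 when a library was left out, and the chronic median from 0.02 (without chronic 1) to 0.53.

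Several differences in the shares of intermediate cells changed sign under an alternative. The share of gated intermediate cells differed by -2.42 percentage points in acute (-8.77 to 3.93 leaving out a library), -4.39 in chronic (-10.7 to 1.96, and 3.16 with Ugt2b34 counted after thinning) and 1.97 between them (-3.31 to 7.26, and -4.22 after thinning). The share below the common rank value differed by -7.49 in acute (-12.8 to -2.19), 2.01 in chronic (-9.54 to 13.6, and -1.53 with no thinning) and -9.49 between them (-21.0 to 2.05).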
